A study of Mus musculus with 2 samples.

Results

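The nuclear-encoded subunits of the mitochondrial respiratory chain and ATP synthase were described in the adrenal gland of 2 aged mice. Members are the protein-coding genes whose symbol begins with Nduf, Uqc, Cox4 to Cox8 or Atp5, together with Sdha to Sdhd and Cyc1, a rule that uses names and no measured value, although it was set with earlier results of these data known. The rule gave 98 of the 55536 annotated genes in the tables, of which 22028 are protein-coding. They comprise 85 structural subunits (36 of complex I, 4 of complex II, 9 of complex III, 20 of complex IV and 16 of complex V), 8 Ndufaf and 3 Uqcc assembly factors, Atp5s, and a second identifier for Atp5o that is listed at 0.

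Both animals, numbered separately in the labels and called animal 1 and animal 2 here, were females of B6CASTF1/J, a first-generation cross between C57BL/6J and CAST/EiJ mice, at 18 to 20 months of age, with no treatment named. The labels give the libraries separate biological replicate, biosample and animal numbers, but 1 description of the second library repeats the animal named for the first, and both list the same donor entry. If the tissue came from 1 mouse, each SD and ratio below would measure the spread between samples of that mouse. Whole adrenal tissue gave 1 total RNA library per animal, so the study holds 1 group and no contrast, and a difference between the animals cannot be told apart from one between tissue pieces or library preparations. The ratios given below are animal 1 over animal 2 and carry no test, because an exact sign-flip test over 2 animals cannot go below a two-sided p of 0.5. In RNA of a whole tissue, fewer cells of a type and less RNA per cell cannot be told apart.

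The respiratory chain sits in the inner mitochondrial membrane. Complex I takes electrons from NADH and complex II from succinate, complex III passes them from ubiquinol to cytochrome c, and complex IV hands them to oxygen. Complexes I, III and IV pump protons, and complex V, the ATP synthase, lets them flow back through a rotating ring to make ATP. All but a few of the subunits are encoded in the nucleus and imported, and some subunits of complexes IV and V have paralogs used in particular tissues. In the adrenal cortex, mitochondria also house the first and last steps of corticosteroid synthesis.

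The libraries held 35769717 expected counts in animal 1 and 35135703 in animal 2. Levels are given as TPM, which is scaled by transcript length, so that levels of different genes can be set side by side within a library. They come from a gene table made from an alignment to the transcriptome, unless a value is given as one of the second quantification, a transcript table made directly from the reads and summed per gene. Genes of the cytoplasmic 7SL RNA took 37.8% of all TPM in animal 1 and 34.2% in animal 2, which lowers the TPM of every other gene. Markers of the labelled tissue were present, with 7 of 7 cortex genes and 5 of 5 medulla genes detected, and summed levels of 15669 and 20107 TPM (cortex) and 1796 and 1517 TPM (medulla) in animals 1 and 2. Brown fat markers were detected too (7 of 7, summing to 1123 and 518 TPM), and so were other fat markers (4 of 5, 2329 and 1640 TPM). Skeletal muscle markers differed most, since all 13 were at least 2-fold higher in animal 1, with sums of 248 TPM in animal 1 and 2.27 in animal 2, where Atp2a1, Ckm, Myh2, Myh4 and Myh7 had no count.

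The members stood among the highest protein-coding genes of the gland. Counting a gene as detected from 1 TPM upward in each library, 94 of 98 members were detected (95.9%), against 52.4% of all protein-coding genes. For 77 of 98 members the mean TPM lay above the level that 90% of detected protein-coding genes stayed below. Together the members took 1.44% of all TPM in animal 1 and 1.28% in animal 2. Summed over subunits, complex I came to 4062 ± 315 TPM, complex IV to 3506 ± 301, complex V to 3362 ± 285, complex III to 1856 ± 170 and complex II to 579 ± 14.1 (mean ± SD, n = 2 animals). These sums rest on different numbers of subunits. Their order was the same in both animals. The gap between complexes IV and V was smaller than the SD of either, but these SDs include shifts that the complexes share within a library. Within a library, complex IV had 3719 TPM against 3564 for complex V in animal 1, and 3293 against 3161 in animal 2. From protein-coding transcripts alone, complex IV came first with 3465 TPM in animal 1 and 3037 in animal 2, above complex I with 3183 and 2846 TPM. Per subunit, and leaving out the tissue-type forms, the median was 273 TPM for complex IV, 202 for complex III, 156 for complex V, 136 for complex II and, in complex I, just above the 99.7 TPM of Ndufa5.

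**Figure D1:**
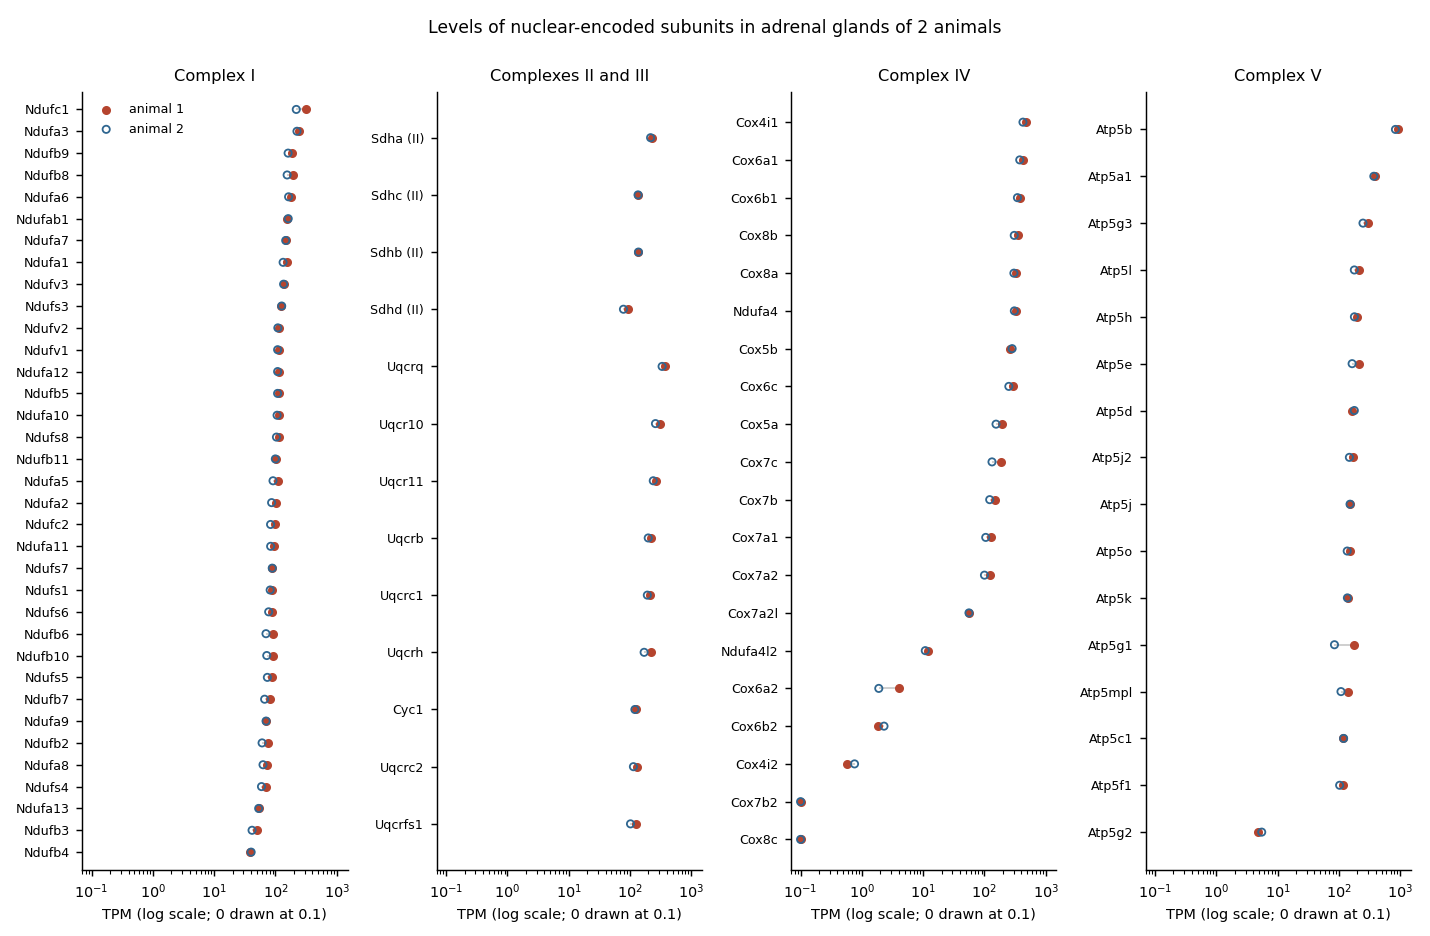
TPM (log axis) of subunits in animal 1 (filled) and animal 2 (open), in 4 panels and sorted by mean TPM within each complex, with genes listed at 0 drawn at 0.1. The subunits without tissue-type forms have a median of 136 TPM and quartiles of 93.8 and 198 TPM, Atp5b lies far to the right at 914 and 840 TPM, and most tissue-type forms of complex IV and Atp5g2 lie far to the left.

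In complex I, which oxidises NADH, all 36 subunits were detected, between 39.2 and 269 TPM on average. The 7 core subunits, which carry the flavin, the iron-sulfur clusters and the quinone site, summed to 851 TPM in animal 1 and 825 in animal 2. Ndufv1, the flavin subunit that oxidises NADH, had 116 TPM in animal 1 and 108 in animal 2, and Ndufs1, the largest iron-sulfur subunit, had 87.0 and 82.0 TPM.

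The 29 accessory subunits of complex I, which surround the core, covered the whole range. Ndufc1 was the highest subunit of the complex with 320 TPM in animal 1 and 219 in animal 2, followed by Ndufa3 with 244 and 224 TPM. The lowest were Ndufa13 with 53.1 TPM in animal 1 and 53.2 in animal 2, Ndufb3 with 49.4 and 41.5 TPM, and Ndufb4 with 38.3 and 40.1 TPM. The place of Ndufb4 depends on a near-identical copy that is described below. Between the quartiles of the 36 subunits, at 80.6 and 138 TPM, neighbouring subunits were not ordered here. The steps between them are small beside SDs such as 12.4 TPM for Ndufb10 and 11.7 TPM for Ndufc2. These SDs include shifts that the subunits share within a library, but places also changed. Ndufb6 was above Ndufb10 in animal 1 (92.1 against 89.6 TPM) and below it in animal 2 (70.0 against 72.1 TPM).

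In complex II, succinate dehydrogenase, Sdha, the flavin subunit, had 227 TPM in animal 1 and 217 in animal 2. The iron-sulfur subunit Sdhb (134 and 138 TPM) and the membrane anchor Sdhc (137 and 136 TPM) did not differ beyond their spread. Sdhd, the other anchor, was the lowest with 91.3 TPM in animal 1 and 78.4 in animal 2. The 4 subunits summed to 589 TPM in animal 1 and 569 in animal 2, the lowest sum among the complexes, in the complex with the fewest subunits.

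In complex III, the small subunits were above the redox subunits. Uqcrq had 376 TPM in animal 1 and 335 in animal 2, Uqcr10 had 307 and 261 TPM, and Uqcr11 had 263 and 240 TPM. The Rieske iron-sulfur protein Uqcrfs1 (124 and 102 TPM), the core protein Uqcrc2 (128 and 114 TPM) and cytochrome c1, encoded by Cyc1 (126 and 121 TPM), were the lowest. The SDs of these 3 genes, between 3.78 and 15.2 TPM, are as large as the gaps between them. Transcripts of these genes differ in length, and over the 77 subunits without tissue-type forms mean TPM and transcript length had a rank correlation of -0.29 across genes, which share 2 libraries.

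In complex IV, cytochrome c oxidase, the general forms were high. Cox4i1, which binds the nucleotides that set the activity of the enzyme, had 477 TPM in animal 1 and 427 in animal 2. Cox6a1 had 425 and 378 TPM and Cox6b1 had 383 and 346 TPM. Ndufa4, long counted with complex I and now with complex IV, had 325 TPM in animal 1 and 309 in animal 2. The lowest general member was Cox7a2l, which takes part in joining complexes III and IV into supercomplexes, with 56.5 and 56.0 TPM.

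Cox7a1 and Cox8b, the forms of subunits 7A and 8 known from heart, skeletal muscle and brown fat, were as high as their general paralogs in the gene table, although Cox7a1 was lower than Cox7a2 in the second quantification. Cox7a1 had 129 TPM in animal 1 and 105 in animal 2, and Cox7a2 had 126 and 100 TPM. Cox7a1 thus made up 50.6% of the 2 forms in animal 1 and 51.2% in animal 2. Cox8b had 360 TPM in animal 1 and 307 in animal 2, and Cox8a had 332 and 303 TPM, so that Cox8b made up 52.0% and 50.3%. On the log2 scale, with 0.01 TPM added to each level, the ratio within a library was 0.05 ± 0.02 for Cox7a1 over Cox7a2 and 0.07 ± 0.07 for Cox8b over Cox8a (mean ± SD, n = 2). The second quantification left Cox8b at 49.4% and 50.5% but gave Cox7a1 only 37.8% in animal 1 and 37.4% in animal 2. The 13 skeletal muscle markers summed to 248 TPM in animal 1 and 2.27 in animal 2, and the 7 brown fat markers to 1123 and 518 TPM. The part of either tissue in the level of Cox7a1 and Cox8b was not tested.

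The remaining tissue-type forms were low or without counts. Ndufa4l2, a form known from cells short of oxygen, had 12.1 TPM in animal 1 and 10.9 in animal 2, a mean of 3.50% of its sum with Ndufa4. Cox6a2, the heart and skeletal muscle form of subunit 6A, had 4.07 and 1.89 TPM. Cox6b2, the testis form of subunit 6B, had 1.86 and 2.30 TPM, and Cox4i2, the lung form of subunit 4, had 0.57 and 0.76 TPM. Relative to their general paralogs, the log2 ratio was -4.79 ± 0.06 for Ndufa4l2, -7.17 ± 0.66 for Cox6a2, -7.45 ± 0.32 for Cox6b2 and -9.40 ± 0.40 for Cox4i2 (mean ± SD, n = 2). The order of Cox6a2 and Cox6b2 lies within their spread. Cox7b2 and Cox8c, both testis forms, had 0 counts in either library, which allows up to 3 counts in each. The germ cell markers Prm1, Prm2 and Tnp1 had 0 counts as well. Ddx4, the other germ cell marker listed, had 43 counts in animal 1 and 34 in animal 2 (0.38 and 0.33 TPM).

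**Figure D2:**
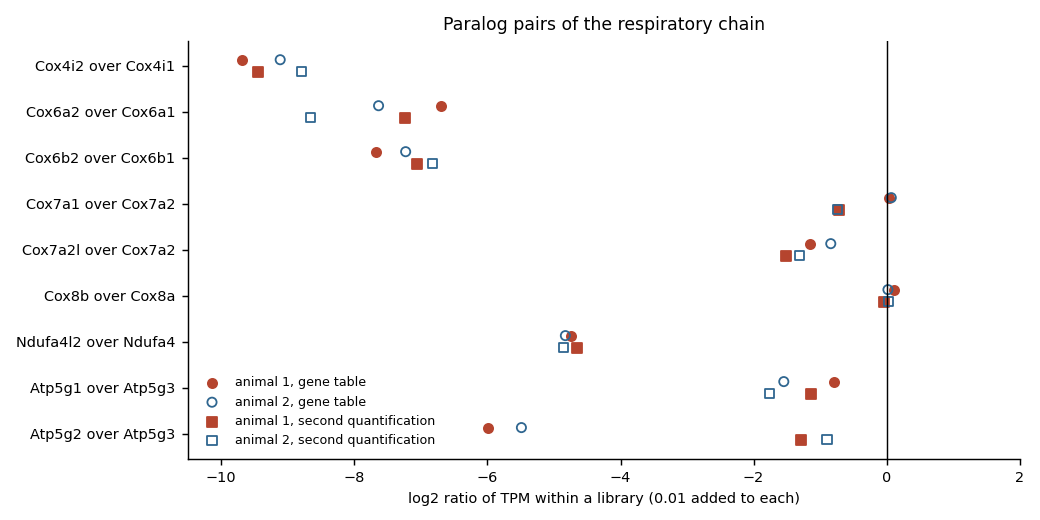
Log2 ratio of TPM of each paralog over its general form within a library, for animal 1 (filled) and animal 2 (open), from the gene table (circles) and the second quantification (squares). Cox7a1 and Cox8b lie close to 0 in the gene table, Ndufa4l2, Cox6a2, Cox6b2 and Cox4i2 lie between -4.74 and -9.68 there, and Atp5g2 has a mean of -5.74 in the gene table and of -1.09 in the second quantification.

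The windows around the start sites of Cox7a1 and Cox7a2 and of Cox8b and Cox8a are shown because these paralogs, of like level in the gene table, carried different words. Each window holds 250 bases before and 50 bases after the start in RefSeq on GRCm38.p6, written 5′ to 3′ on the strand of the gene. Capitals mark the words searched for, which are given with their shares among all genes further on. Cox7a1 lies at chr7:30183921-30184220 on the plus strand, Cox7a2 at chr9:79759804-79760103 on the minus strand, Cox8b at chr7:140900397-140900696 on the minus strand and Cox8a at chr19:7217567-7217866 on the minus strand.
Cox7a1: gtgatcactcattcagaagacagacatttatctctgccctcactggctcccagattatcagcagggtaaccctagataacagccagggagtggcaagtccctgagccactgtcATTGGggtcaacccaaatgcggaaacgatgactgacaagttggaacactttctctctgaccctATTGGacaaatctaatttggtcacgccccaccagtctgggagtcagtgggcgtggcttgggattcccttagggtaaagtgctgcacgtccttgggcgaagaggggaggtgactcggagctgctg
Cox7a2: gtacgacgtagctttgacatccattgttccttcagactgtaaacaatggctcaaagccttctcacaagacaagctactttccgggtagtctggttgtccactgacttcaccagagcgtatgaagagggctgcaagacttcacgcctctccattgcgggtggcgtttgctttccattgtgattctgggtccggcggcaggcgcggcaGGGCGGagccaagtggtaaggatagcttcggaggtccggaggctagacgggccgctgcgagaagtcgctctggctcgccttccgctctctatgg
Cox8b: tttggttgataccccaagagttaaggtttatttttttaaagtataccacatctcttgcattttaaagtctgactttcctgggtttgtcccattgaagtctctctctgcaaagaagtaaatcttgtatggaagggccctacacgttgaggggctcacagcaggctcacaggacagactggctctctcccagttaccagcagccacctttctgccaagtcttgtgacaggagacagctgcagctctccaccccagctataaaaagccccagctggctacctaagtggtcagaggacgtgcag
Cox8a: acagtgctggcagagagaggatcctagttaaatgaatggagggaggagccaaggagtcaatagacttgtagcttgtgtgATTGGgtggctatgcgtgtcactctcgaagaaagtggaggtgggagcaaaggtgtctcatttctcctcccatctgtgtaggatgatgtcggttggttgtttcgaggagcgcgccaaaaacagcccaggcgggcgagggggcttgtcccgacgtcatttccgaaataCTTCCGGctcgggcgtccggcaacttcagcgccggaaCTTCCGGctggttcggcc
The window of Cox7a1 held the NF-Y word at 2 places and that of Cox7a2 the Sp1 word at 1. Cox8a held the GABPA word at 2 places and the NF-Y word at 1. Cox8b, with a GC content of 48.3%, against 56.0% in Cox8a, held none of the 6 words, which says only that these letters are not in this window.

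In complex V, Atp5b, the catalytic beta subunit of the F1 head, was the highest member of all with 914 TPM in animal 1 and 840 in animal 2. Atp5a1, the alpha subunit, which stands beside it in equal number in the head, had 384 and 373 TPM. The F1 subunits of the central stalk were lower, with 115 and 120 TPM for Atp5c1 (gamma), 165 and 179 TPM for Atp5d (delta) and 210 and 165 TPM for Atp5e (epsilon). The subunits of the side stalk and the membrane part, Atp5f1, Atp5h, Atp5j, Atp5j2, Atp5k, Atp5l, Atp5mpl and Atp5o, lay between 110.0 TPM (Atp5f1) and 198 TPM (Atp5l) on average.

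Atp5g1, Atp5g2 and Atp5g3 encode one and the same mature protein, subunit c of the rotor ring, and differ in the leader that directs import. Their final 79 codons, the stop included, encode the same 78 residues, yet 64 of the 237 bases differ among the 3 genes, 55 of them at the last base of a codon. The stretches are shown because they encode the same residues with different bases. They come from GENCODE M21 on GRCm38, written 5′ to 3′ on the coding strand, with capitals where the 3 genes differ. They span chr11:96073104-96073644 (Atp5g1), chr15:102663014-102665175 (Atp5g2) and chr2:73908593-73909305 (Atp5g3), all on the minus strand and introns included.
Atp5g1: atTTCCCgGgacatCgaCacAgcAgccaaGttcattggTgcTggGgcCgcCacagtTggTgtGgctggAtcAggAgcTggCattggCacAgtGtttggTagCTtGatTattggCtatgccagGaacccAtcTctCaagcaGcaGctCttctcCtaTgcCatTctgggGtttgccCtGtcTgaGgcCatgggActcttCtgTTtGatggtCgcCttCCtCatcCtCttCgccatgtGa
Atp5g2: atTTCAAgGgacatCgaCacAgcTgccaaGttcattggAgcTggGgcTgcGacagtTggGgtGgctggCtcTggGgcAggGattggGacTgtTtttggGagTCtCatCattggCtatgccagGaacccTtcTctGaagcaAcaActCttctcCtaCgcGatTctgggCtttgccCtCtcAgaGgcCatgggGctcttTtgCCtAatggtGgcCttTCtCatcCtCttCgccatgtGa
Atp5g3: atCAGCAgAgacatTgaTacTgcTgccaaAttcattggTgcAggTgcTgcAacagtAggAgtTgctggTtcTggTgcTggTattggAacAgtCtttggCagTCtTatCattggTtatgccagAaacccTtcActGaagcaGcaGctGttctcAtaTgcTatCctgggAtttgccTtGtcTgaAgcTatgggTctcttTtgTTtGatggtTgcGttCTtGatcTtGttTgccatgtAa
Over these bases Atp5g1 and Atp5g2 are 84.8% identical, Atp5g1 and Atp5g3 78.5%, and Atp5g2 and Atp5g3 77.2%.

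Atp5g3 was the highest of the 3 genes with 304 TPM in animal 1 and 248 in animal 2. Atp5g1 had 175 TPM in animal 1 and 84.9 in animal 2, so the log2 ratio of Atp5g1 over Atp5g3 was -0.80 in animal 1 and -1.55 in animal 2. Atp5g2 was listed at only 4.76 and 5.51 TPM, a log2 ratio over Atp5g3 of -5.74 ± 0.36 (mean ± SD, n = 2). In the second quantification it had 241 and 222 TPM, with log2 ratios over Atp5g3 of -1.29 and -0.90.

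The difference between the quantifications of Atp5g2 went with a copy of its messenger RNA elsewhere in the genome. The pseudogene Gm10175, at chr7:23946646-23947290, is identical to an Atp5g2 transcript over 645 bases, the whole coding sequence of 441 bases included. In the gene table Gm10175 held 2571 counts in animal 1 and 2361 in animal 2, and Atp5g2 itself 116 and 121. The second quantification gave Gm10175 no count and Atp5g2 2475 and 2282. Reads from identical sequence cannot be placed, so the level of Atp5g2 in the gene table is uncertain. Member and copy together had 126 TPM in animal 1 and 127 in animal 2.

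Such copies were found for 23 of 98 members, with 43 copies at 95% identity or more over at least 150 bases and 80% of the copy. In the gene table, copies held at least 10% of the joint counts in both animals for 8 members, and in the second quantification for 1, Ndufab1. Ndufb4 shared its counts with Ndufb4c, a pseudogene on chromosome 15 that is identical to it over 390 bases. There the copy held 1403 counts in animal 1 and 1155 in animal 2, against 796 and 795 for Ndufb4, and member and copy together had 162 and 152 TPM. The other members with such shares in the gene table were Atp5h, Atp5l, Cox7a2l, Cox7c, Ndufa12 and Ndufs5.

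**Figure D3:**
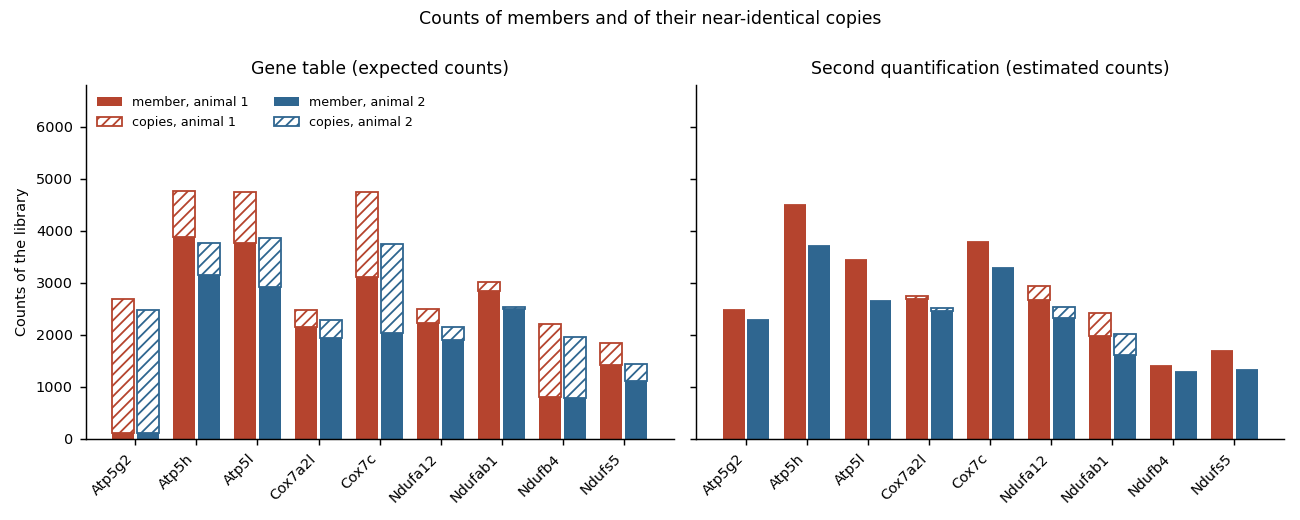
Counts of 9 members (solid) and of their near-identical copies (hatched, stacked on top) in animal 1 (left bar) and animal 2 (right bar), from the gene table (left panel) and the second quantification (right panel). Copies hold nearly all of the joint counts of Atp5g2 and a large part of those of Cox7c and Ndufb4 in the gene table, and have no counts for these 3 members in the second quantification, where Ndufab1 has the largest share.

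Cox7c, which encodes a small membrane subunit of complex IV, shows how far an identical copy reaches. Its coding sequence, at chr13:86045753-86046675 on the minus strand with introns left out, is 192 bases long and is identical to the whole of Gm12338, an annotated pseudogene at chr11:75599763-75599954. It is shown because nothing in these bases tells the 2 loci apart, with the start and stop codons in capitals.
Cox7c: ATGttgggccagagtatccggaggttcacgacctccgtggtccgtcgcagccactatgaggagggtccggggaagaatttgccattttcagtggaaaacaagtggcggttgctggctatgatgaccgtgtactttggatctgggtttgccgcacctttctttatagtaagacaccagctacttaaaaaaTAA
The gene table gave Gm12338 348 TPM in animal 1 and 420 in animal 2, above Cox7c itself with 184 and 133 TPM. The second quantification gave Gm12338 no count and Cox7c 688 and 594 TPM. Cox7c with its 2 copies had 569 TPM in animal 1 and 587 in animal 2 in the gene table, most of it from the 192-base Gm12338.

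Over the 94 detected members the second quantification gave higher TPM, with a median log2 difference of 1.00 over the gene table after 1 TPM was added to each mean level, against 0.79 for detected protein-coding genes. The members furthest from that median were Atp5g2 (5.25), Ndufb4 (2.77), Atp5e (2.06), Cox7c (2.01) and Sdhc (0.07). The mean length of the subunits' transcripts was short, with a median of 656 bases over the 77 subunits without tissue-type forms, against 2451 bases for detected protein-coding genes. In the deposited tables, effective lengths were 99 bases under the full length in the gene table and 328 and 323 bases under it in the second quantification, a larger part of a short transcript. The difference between the quantifications had a rank correlation with transcript length of -0.03 across the 77 subunits, against -0.22 across detected protein-coding genes. The order of the subunits was similar in the quantifications, with a rank correlation of 0.85 across 77 genes that share 2 libraries.

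In the gene table, most of the members' RNA was assigned to transcripts annotated as protein-coding. The median share was 98.6% in animal 1 and 97.6% in animal 2, against 94.3% and 91.9% over detected protein-coding genes. The second quantification gave 92.5% and 89.1% for the members, against 92.7% and 89.5%, so the members' lead was not seen there. The lowest shares in the gene table were those of Ndufa3 (7.80% and 7.40%), Uqcc1 (14.5% and 7.50%), Atp5j (16.8% and 15.9%), Ndufs4 (18.7% and 16.8%) and Ndufa5 (26.8% and 29.0%). In Ndufa3, a 343-base transcript annotated as a target of nonsense-mediated decay took 91.9% and 91.8% of the gene's TPM. In Atp5j, a 526-base transcript with a retained intron took 80.6% and 79.5% in the gene table, but 17.3% and 31.6% in the second quantification. The coding shares of Atp5j (77.5% and 63.2%) and Uqcc1 (65.6% and 72.3%) were much higher in the second quantification. Those of Ndufa3 (16.6% and 16.3%), Ndufs4 (15.2% and 13.4%) and Ndufa5 (22.8% and 24.2%) stayed low there. Other members with high shares in the gene table fell in the second quantification. Uqcr11 went from 99.6% and 99.2% to 0% in both animals, and Cox6a1 from 99.3% in both to 10.5% and 11.9%. Atp5k went from 98.4% and 98.9% to 14.3% and 3.33%.

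Assembly factors help build the complexes and are not part of them. The 8 Ndufaf genes, each below the lowest subunit of complex I, summed to 105 TPM in animal 1 and 90.7 in animal 2. Ndufaf8 was the highest with 23.1 and 19.0 TPM, and Ndufaf6 the lowest with 5.42 and 3.34 TPM. The 3 Uqcc genes, which act on cytochrome b, were higher, with 91.2 and 80.2 TPM for Uqcc2, 42.2 and 36.8 TPM for Uqcc1 and 23.9 and 19.8 TPM for Uqcc3. Atp5s, known as coupling factor B, had 5.35 and 3.48 TPM.

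Messenger RNAs of the mitochondrial genome, whose products join the nuclear-encoded subunits in complexes I, III, IV and V, were higher in sum than their nuclear-encoded partners. The 7 mitochondrial genes of complex I summed to 26380 TPM in animal 1 and 31079 in animal 2, against 4285 and 3839 TPM for the 36 nuclear-encoded subunits. The log2 ratio of mitochondrial over nuclear sums was 2.82 ± 0.28 for complex I, 2.03 ± 0.09 for complex IV, 1.96 ± 0.36 for complex III and 1.92 ± 0.29 for complex V (mean ± SD, n = 2). Nuclear copies of mitochondrial DNA share reads with these genes, so their levels are uncertain. Complex II has no mitochondrially encoded subunit.

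Between the animals, the members differed little, and most of them in the same direction. With counts scaled by TMM, which sets most genes equal between the libraries, the median log2 ratio of animal 1 over animal 2 was 0.22 over the 95 members that averaged 10 counts or more, and 87 of 95 were higher in animal 1, but with the spike-in totals as scale the median was -0.00387 and 47 of 95 were higher in animal 1. The spike-in scale moves every gene by the same amount, and the median of all 17012 genes with such a count was 0.01 with TMM and -0.21 with spike-ins. On either scale the members' median lay 0.21 above that of all genes. By complex, the TMM medians were 0.25 (IV), 0.21 (V), 0.21 (III), 0.19 (I) and 0.08 (II), and the spike-in medians 0.03 (IV), -0.01 (V), -0.01 (III), -0.04 (I) and -0.15 (II). Within complex I, the 7 core subunits had a median of 0.12 and the 29 accessory subunits one of 0.25 with TMM, against -0.10 and 0.03 with spike-ins.

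Among the 93 members that averaged 50 counts or more, 54 were higher in animal 1 with deposited intervals that did not overlap on the TPM scale, against 12.5% of the 13569 genes with such a count. One member, Atp5d, was higher in animal 2 with intervals that did not overlap, against 20.6% of these genes. These intervals cover the estimation of 1 library's TPM and not the spread between animals. They are narrower, relative to the level, where counts are high, and the 13569 genes were not matched to the members for level. With TMM, 13 of 13 skeletal muscle, 6 of 7 brown fat, 5 of 5 other fat and 5 of 5 medulla markers were higher in animal 1 as well. Of the cortex markers only 3 of 7 were, and their median log2 ratio was -0.36 with TMM and -0.59 with spike-ins. The median of the medulla markers was 0.36 with TMM and 0.14 with spike-ins, where Chgb (-0.10) and Pnmt (-0.08) were lower in animal 1. The part of these tissues in the members' ratios was not tested.

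**Figure D4:**
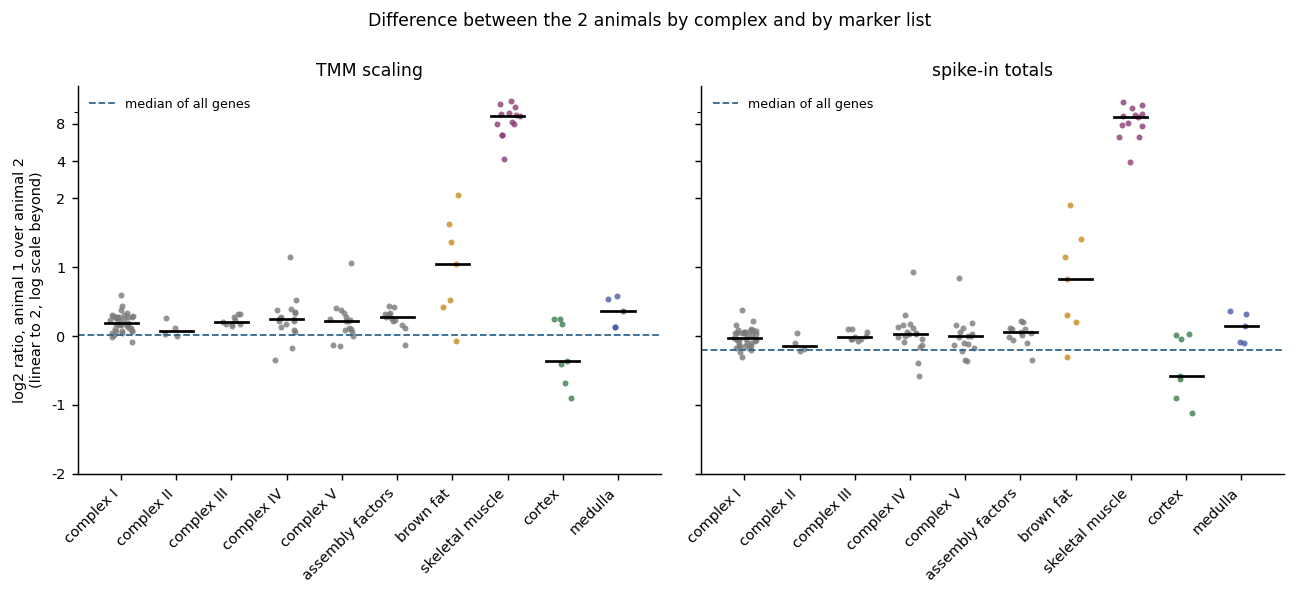
Log2 ratio of animal 1 over animal 2 for members of each complex, assembly factors and 4 marker lists (points, genes averaging 10 counts or more; black bars, medians), scaled by TMM (left) or spike-in totals (right), with the median of all genes dashed. The medians of the 5 complexes lie above the dashed line in both panels, at 0.08 to 0.25 with TMM and -0.15 to 0.03 with spike-ins, while skeletal muscle markers lie above 4 with TMM.

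At least 2-fold apart with separate intervals were 2 of 93 members, both higher in animal 1, against 1.75% of the 13569 genes in that direction, and 0 of 93 were that much higher in animal 2, against 1.71%. A share of 2 in 93 is close to that background, and with spike-ins neither gene reached 2-fold. In the second quantification, which has no intervals, Cox6a2 had a log2 ratio of 1.56 but fell under the minimum of 50 counts, with 55 in animal 1 and 18 in animal 2. Cox6a2, at chr7:128205435-128206387, had 92 counts in animal 1 and 39 in animal 2, a log2 ratio of 1.14 with TMM and 0.92 with spike-ins. All 13 skeletal muscle markers were higher in animal 1, and their part in the difference of Cox6a2 was not tested. Atp5g1, at chr11:96068852-96075670, had 3541 counts in animal 1 and 1595 in animal 2, a log2 ratio of 1.07 with TMM, 0.85 with spike-ins and 1.07 in the second quantification. The other subunit c genes differed less, with log2 ratios of 0.34 for Atp5g3 and -0.14 for Atp5g2, or 0.03 for Atp5g2 with its copies.

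The next members toward animal 1 were Ndufc1 (log2 ratio 0.60), Cox7c (0.53) and Ndufb6 (0.44). Of these, Ndufc1 had 320 TPM in animal 1 and 219 in animal 2, and 0.59 in the second quantification. Cox7c had a log2 ratio of 0.26 with its copies added and of 0.18 in the second quantification. Among members averaging 50 counts or more, those furthest toward animal 2 after Atp5g2 were Ndufaf2 (-0.13), Atp5d (-0.13), Ndufb4 (-0.08) and Ndufs3 (-0.01). Atp5g2, Ndufb4 and Ndufs3 were higher in animal 1 in the second quantification (0.10, 0.10 and 0.04), so their sign changes with the table. Below that minimum, Cox4i2 (-0.35, with 14 counts in animal 1 and 17 in animal 2) and Cox6b2 (-0.17, with 30 and 32) lay further toward animal 2. Atp5d kept its sign in scaled counts, with -0.06 in the second quantification. Its TPM did not, with 165 in animal 1 and 179 in animal 2 in the gene table, but 319 and 310 in the second quantification.

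Among genes that work with the members but mostly lie outside the symbol rule, 75 genes in 10 lists, 73 averaged 50 counts or more. The same fold rule called 3 of these 73, all higher in animal 1 under TMM, against 1.75% of all genes in that direction, and 0 higher in animal 2, against 1.71%. Ckmt2, the mitochondrial creatine kinase of striated muscle, had 240 counts in animal 1 and 2 in animal 2. Ucp1, the uncoupling protein of brown fat, which lets protons bypass ATP synthase, had 743 TPM in animal 1 and 298 in animal 2, and its relative Ucp3 had 12.2 and 5.88 TPM, a log2 ratio of 1.14 with TMM and 0.92 with spike-ins. None of the assembly factors outside the rule was called, with 9 for complex I, 4 for II, 3 for III, 21 for IV and 3 for V, and TMM median log2 ratios between 0.09 (I) and 0.35 (II), or -0.13 (I) and 0.12 (II) with spike-ins. Lyrm7, a factor for complex III, had 252 counts in animal 1 and 109 in animal 2. Its log2 ratio was 1.12 with TMM and 0.90 with spike-ins, but its TPM intervals overlapped. None of the 9 electron carriers and quinone-linked enzymes and none of the 10 transcription regulators of mitochondrial genes was called either, and at that background few calls would fall in lists of this size. The 10 regulators had a median log2 ratio of 0.15 with TMM and -0.07 with spike-ins. Of these, 3 are named here, picked after their values were seen. Esrra, the estrogen-related receptor alpha, had 17.8 TPM in animal 1 and 11.7 in animal 2. Gabpb1, a partner of GABPA, had 3.99 and 7.19 TPM, and Pprc1 had 7.29 and 12.3 TPM.

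Several features that the symbol rule did not use had larger shares among the members' start regions than among those of detected protein-coding genes. A protein-coding gene on the opposite strand began within 1000 bases of the start of 35 of 98 members (35.7%), against 10.8% of all protein-coding genes and 16.3% of detected ones. The partners were of many kinds, among them the mitochondrial ribosomal protein Mrpl36 (with Ndufs6), the ribosomal protein Rps28 (with Ndufa7), the translation factor Eef1b2 (with Ndufs1), the oocyte growth factor Gdf9 (with Uqcrq) and the transcription factor Gabpa (with Atp5j), picked after their names were seen. Levels of the partners were not alike: Mrpl36 had 21.8 TPM in animal 1 and 18.3 in animal 2 beside Ndufs6 with 88.9 and 77.5 TPM, while Eef1b2 beside Ndufs1 had 182 and 189 TPM. Reads were kept by strand in the library kit, but whether the counting used strand is not stated in the labels or tables.

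RefSeq start windows were found for 79 of 97 members, not counting the second Atp5o identifier. Words were searched on both strands, and 1 window per gene, the most upstream, was used. The Nrf1 word GCGCNNGCGC was in 26.6% of the members' windows, against 14.4% of detected protein-coding genes and 6.47% of all 27025 genes. The ERR word AAGGTCA, bound by estrogen-related receptors, was in 11.4%, against 3.02% and 4.65%, and the YY1 word AAGATGG in 15.2%, against 7.41% and 6.46%. For the GABPA word CCGGAAG the shares were 21.5%, 18.8% and 9.14%, and for the NF-Y word CCAAT 45.6%, 38.4% and 38.0%. The Sp1 word GGGCGG was rarer in the members, at 48.1%, than in detected protein-coding genes, at 66.6%, while all genes had 35.9%. The median GC content was 57.3% in the members' windows and 61.3% in detected protein-coding genes. None of the words contains another, although neighbouring matches can share bases.

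The YY1 word lay mostly after the start. Of its 12 occurrences in members, 10 began after the start site, and all 10 lay on the strand of the gene, while in detected protein-coding genes 42.6% of its occurrences began after the start and 83.3% of these lay on the strand of the gene. The window of Ndufs6, a subunit of complex I that starts head-to-head with Mrpl36, is shown as an example that holds the Nrf1, YY1 and NF-Y words, in capitals. It lies at chr13:73328433-73328732 on the minus strand of GRCm38.p6 and is written 5′ to 3′ on that strand.
Ndufs6: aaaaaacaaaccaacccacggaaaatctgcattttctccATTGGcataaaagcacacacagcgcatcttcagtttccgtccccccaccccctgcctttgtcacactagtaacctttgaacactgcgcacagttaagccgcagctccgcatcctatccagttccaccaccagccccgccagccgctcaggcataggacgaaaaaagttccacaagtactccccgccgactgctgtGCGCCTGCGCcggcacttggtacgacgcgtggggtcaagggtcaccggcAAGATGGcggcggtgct
A match to a word is a match of letters and was not tested as a binding site.

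**Figure D5:**
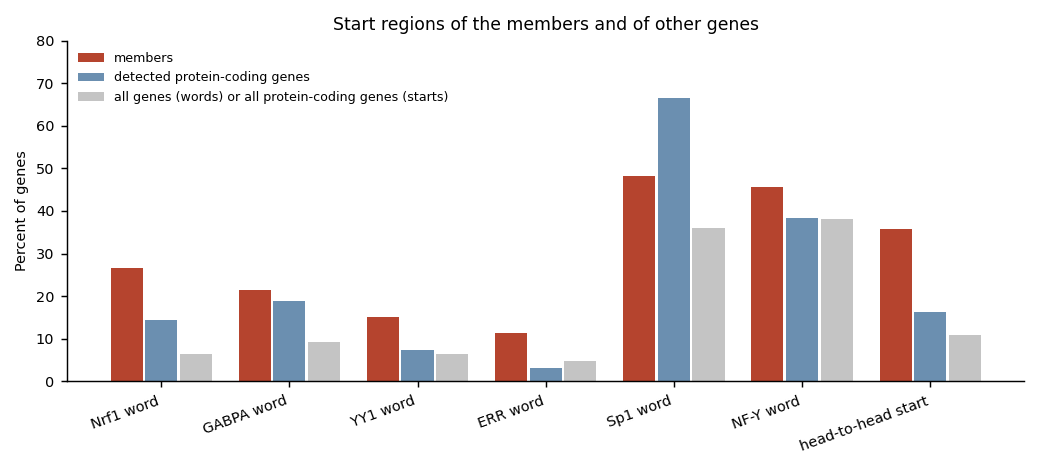
Percent (y axis) of members, of detected protein-coding genes and of all genes (all protein-coding genes for the starts) whose start window holds each of 6 words (first 6 groups of bars), and percent with an opposite-strand start within 1000 bases (last group). The members' bars are the highest for Nrf1, GABPA, YY1, ERR, NF-Y and head-to-head starts, and the Sp1 bar is lower for members (48.1%) than for detected protein-coding genes (66.6%).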

How the data were processed

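Total RNA of 1 whole-adrenal sample from each of 2 mice was sequenced after ribosomal RNA reduction and addition of ERCC spike-ins, with a library kit that keeps the strand and 300 ng of RNA, per the labels. The authors deposited, per the file headers, expected counts, TPM and lower and upper TPM bounds per gene (level not given), the same kind of table per transcript, and a second transcript table of estimated counts and TPM made directly from the reads. The reference was mm10 with GENCODE M21, per the labels, and no program is named in the labels or file headers.

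Expected counts were rounded and scaled by TMM (edgeR 4.0.16, R 4.3.3), with size factors of DESeq2 1.42.0 and spike-in totals as alternatives and 0.5 added to each count. Totals were 35769717 and 35135703 expected counts in animals 1 and 2, and 3 counts, the most that a count of 0 allows, equal 0.0839 and 0.0854 CPM. Intervals and floors cover counting error only. A gene was called apart at 2-fold or more with 50 counts or more on average and TPM bounds that do not overlap. Near-identical copies were found with blastn 2.17.0. No test was run, as there is 1 group of 2 animals. Named genes were all paralog sets, the 3 highest and 3 lowest per complex, members under 1 TPM or called apart, and the 5 most extreme by ratio, coding share and quantification. The members and lists were chosen with earlier results of these data known. A gene that this rule names is not reported here.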

Additional observations from a re-analysis of the deposited data

Results flagged for a closer look

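Of 13 symbols that match the naming rule but have no protein-coding transcript, 3 had counts above the limit of 3 in both libraries. Ndufb4c, the identical pseudogene of Ndufb4, averaged 117.945 TPM in the gene table (124 in animal 1 and 112 in animal 2) and was listed at 0 in the second quantification. Ndufb1-ps, annotated as a long noncoding RNA from a bidirectional promoter, averaged 61.945 TPM (65.2 and 58.7) and had 236 and 205 TPM in the second quantification. Cox6c2, a processed pseudogene, averaged 1.285 TPM (1.06 and 1.51) and was listed at 0 in the second quantification.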

How the results depend on the processing

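The TPM sum of all subunits was 13365, with 12597 to 14133 when either animal was left out, 28332 in the second quantification, 44335 when TPM was rescaled over nuclear protein-coding genes and 11288 from protein-coding transcripts alone. The second quantification put Cox7a1 over Cox7a2 at -0.73 (main 0.05, and 0.04 to 0.07 without either animal) and Cox8b over Cox8a at -0.00483 (main 0.07), the median coding share at 90.8% (main 98.1%, 97.6% to 98.6%) and mitochondrial over nuclear sums at a log2 ratio of 2.04 (main 2.30, 2.12 to 2.48). With spike-ins, the median log2 ratio of animal 1 over animal 2 was -0.00773 over the subunits (main 0.21), -0.0357 in complex I, -0.15 in II, -0.0142 in III and -0.00650 in V. Members 2-fold apart numbered 2, against 0 with spike-ins and 1 in the second quantification (no intervals; Cox6a2 had a log2 ratio of 1.56 there but too few counts), and 3 at 1.5-fold. The number detected was 94 without either animal. The cause of these shifts was not tested. Adding near-identical copies to the members was chosen after seeing the data. Among the paralog ratios, medians and 2-fold count it moved 2 values, Cox7a2l over Cox7a2 (-0.27, main -0.996) and Atp5g2 over Atp5g3 (-1.12, main -5.74). Ratios of single genes between the animals changed as well, to 0.26 for Cox7c (main 0.53), 0.03 for Atp5g2 (main -0.14) and 0.09 for Ndufb4 (main -0.08). No paired analysis was possible because there is 1 group. With 1 library per animal, depth limits Cox4i2, Cox6b2 and Cox6a2, at 14 to 92 counts.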
